A study of Mus musculus with 64 samples.

Results

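Immediate early genes were followed in microdissected early distal convoluted tubules (DCT) of mice given furosemide in the diet or a control diet. The set was a named list of 10 genes, Fos, Fosb, Atf3, Jun, Junb, Jund, Egr1, Ier2, Dusp1 and Gadd45b, each taken by its symbol from the deposited count table. These are 10 of the 54331 genes in the table, and all 10 were among the 41507 genes that passed the filter on low counts and were tested. The working name of the set also carries the words dissection stress. All libraries came from dissected tubules, so how much of any level was set by handling was not tested.

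The study asked how the early DCT responds over time to furosemide. This loop diuretic inhibits salt absorption in the thick ascending limb, the segment before the DCT. The 64 libraries form 16 groups of 4, male or female, control or furosemide diet, at 12, 24, 48 and 96 h, and each time had its own control-diet groups. All groups were of the line C57BL/6-Tg (Pvalb-tdTomato)15Gfng/J, in which a red fluorescent protein is made under the parvalbumin gene's control, all had eaten the control diet beforehand, and all tubules were dissected between 9 and 11 am. The labels give no age, and they number the replicates without saying that each came from a separate animal, so each p measures only how these libraries vary, which may be partly technical. Expression is given as CPM, the counts of a gene in every 1e+06 of its library, after scaling of each library by the trimmed mean of M-values (TMM), with its SD and n where libraries are averaged. A difference between diets is a log2 fold change, furosemide over control, from a fit of all 64 libraries, and a gene is called where its adjusted p is under 0.05.

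Immediate early genes are transcribed within minutes of a stimulus by factors that are already present in the cell, without new protein synthesis. Several of their products are transcription factors of the AP-1 family, in which Fos-type and Jun-type proteins pair to bind DNA, and others feed back on the kinase cascades that switched them on. Their messenger RNAs are short-lived, and the same genes are widely known to be induced when tissue is handled, warmed or dissociated.

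The DNA just upstream of 4 members is shown because these genes stand for different roles in the set: Fos and Junb are partners in AP-1, Dusp1 varied together with Jun, and Gadd45b was the member with a called diet effect. The sequences are RefSeq's for build GRCm38.p6, come from the 250 bases before RefSeq's start, and run 5′ to 3′ on the strand of the gene. Capitals mark the core of the cAMP response element (CRE), searched as TGACG or CGTCA on both strands, and the full palindrome TGACGTCA where it occurs. Bases nearest the start that the GRCm38 gene models place in an exon are left out, 47 in Dusp1 and 18 in Gadd45b, so those printed sequences stop short of the start.
Fos, chr12:85473640-85473889, plus strand: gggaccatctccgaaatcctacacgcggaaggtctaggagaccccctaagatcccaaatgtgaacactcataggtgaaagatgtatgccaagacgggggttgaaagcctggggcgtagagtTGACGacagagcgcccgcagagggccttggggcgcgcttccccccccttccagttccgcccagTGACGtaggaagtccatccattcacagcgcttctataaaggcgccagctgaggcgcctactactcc
Junb, chr8:84978749-84978998, minus strand: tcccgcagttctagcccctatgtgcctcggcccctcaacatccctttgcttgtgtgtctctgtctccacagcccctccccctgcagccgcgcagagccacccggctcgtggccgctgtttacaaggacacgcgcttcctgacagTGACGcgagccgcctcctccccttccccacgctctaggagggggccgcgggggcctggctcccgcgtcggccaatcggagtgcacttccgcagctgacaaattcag
Dusp1, chr17:26508520-26508722, minus strand: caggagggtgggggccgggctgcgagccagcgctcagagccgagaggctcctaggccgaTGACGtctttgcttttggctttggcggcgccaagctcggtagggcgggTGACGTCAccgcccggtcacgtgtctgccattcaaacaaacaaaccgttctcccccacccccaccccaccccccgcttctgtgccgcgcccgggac
Gadd45b, chr10:80929841-80930072, plus strand: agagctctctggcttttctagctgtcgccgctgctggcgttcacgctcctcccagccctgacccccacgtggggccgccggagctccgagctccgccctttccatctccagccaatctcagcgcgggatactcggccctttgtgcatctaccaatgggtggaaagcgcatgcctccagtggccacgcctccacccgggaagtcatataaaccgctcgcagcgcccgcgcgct

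In the annotation of GRCm38, Fos lies at chr12:85473890-85477273 on the plus strand, Fosb at chr7:19302696-19310051 on the minus strand and Atf3 at chr1:191170296-191218039. Jun, a gene of 1 exon, lies at chr4:95049034-95052222 on the minus strand, Junb at chr8:84974484-84978718 on the minus strand and Jund, also of 1 exon, at chr8:70698949-70700616 on the plus strand. Ier2, with 1 exon as well, lies at chr8:84661331-84662852, Dusp1 at chr17:26505590-26562128 on the minus strand and Gadd45b at chr10:80930073-80932204 on the plus strand, and Egr1 is on chromosome 18. Counts were summed over whole genes, and exons and introns were not measured separately.

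Windows were found in the RefSeq table for 8 of the 10 members, all but Egr1 and Ier2. The letters were searched in the full 250 bases, and distances are counted from RefSeq's start. The CRE core was found in 5 of these 8. It lay at 129 and 66 bases before the start of Fos, at 106 in Junb, at 60 in Fosb and at 7 in Atf3. In Dusp1 it lay at 191, 143 and 140. The matches at 143 and 140 are the opposite strands of the same full palindrome, which begins at 143. The match in Atf3 lies in the 7 bases that the gene models place in an exon, so 4 of the 8 held the core once exon bases were left out of the windows of Fosb, Atf3, Gadd45b and Dusp1. It was not found in the windows of Jun, Jund and Gadd45b. The Jund window, chr8:70697489-70697738, ends well before the start of that gene in the gene models, at 70698949. The bases next to that start were thus not searched. Among all 27025 RefSeq windows of 250 bases, with no base left out, 17.6% held the core and 1.56% the full palindrome. No member's window held the AP-1 letters TGANTCA, found in 6.87% of all windows, or a CArG box, found in 1.39%. These are matches of letters and not measured binding.

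Of the members, Gadd45b alone passed the test for the diet in a comparison over both sexes. Gadd45b makes a small stress protein that binds and activates a kinase of the p38 and JNK cascades. Averaged over the 4 times and both sexes its level fell by 1.01 on the log2 scale (SE 0.185, quasi-likelihood test of edgeR, Benjamini-Hochberg adjusted p = 0.00128), from 8.69 ± 9.54 CPM (SD, n = 32) on the control diet to 4.18 ± 1.92 CPM (SD, n = 32) on furosemide. Its value was under the control median of 7.65 CPM in 30 of 32 libraries from mice on furosemide. In the same comparison 1 of the 10 members was called, against 0.588% of all genes tested. The other 9 members had average differences between -0.33 (Dusp1) and 0.80 (Fos), and none of these 9 passed. In a bulk sample, fewer cells of a type and less RNA per cell cannot be told apart.

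**Figure D1:**
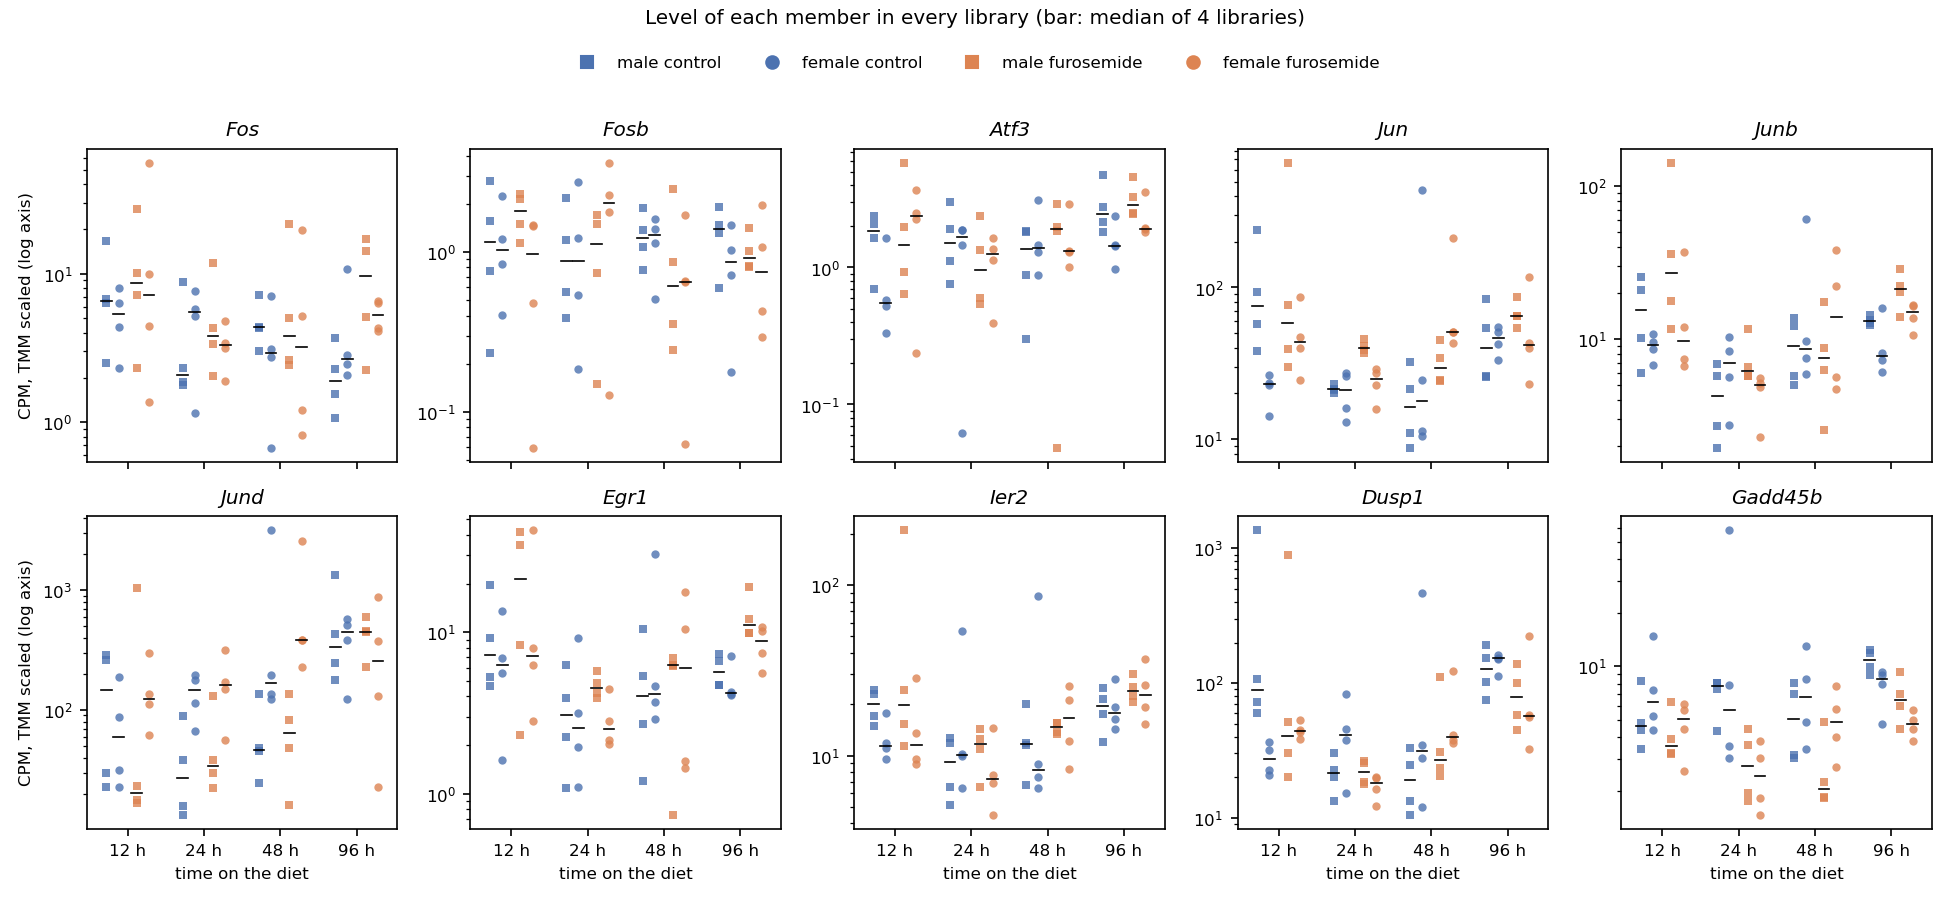
Each panel plots 1 gene, with the time on the diet across and CPM on a log axis upward, where a point is 1 library, squares are males, circles are females, blue is control, orange is furosemide and a bar is the median of 4 libraries. Gadd45b on furosemide lay under the median of the controls in 30 of 32 libraries, while Jund ran from 13.3 to 3163 CPM.

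Total counts per library ran from 12.71 to 41.07 M (1e+06 counts), with a median of 20.5 M. All 10 DCT markers were detected in each library, with a summed level of 7376 to 22042 CPM of all counts in controls and 7769 to 13775 on furosemide. Markers of neighbouring segments were present too. The 6 thick ascending limb markers summed to 2473 to 10104 CPM in controls and 2518 to 10180 on furosemide. The 7 connecting tubule and principal cell markers summed to 441 to 5157 and 680 to 6454 CPM. Control medians were 11014, 5566 and 1716 CPM in this order. By rank correlation over well expressed genes, 3 libraries stood apart from the others of their own group. They were replicate 3 of female control at 24 h, replicate 4 of female control at 48 h and replicate 4 of male furosemide at 12 h. Their median Spearman correlations with the other libraries of the same group were 0.448, 0.703 and 0.722. Leaving them out changed signs or calls in several comparisons, and those values are given with the results. Without them 43343 genes passed the filter.

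Levels were ordered by CPM per kilobase of exonic length, since a longer transcript collects more counts. That length counts every base in an exon of any transcript of the gene, 6243 for Fosb and 4484 for Egr1. The median over the 64 libraries was 81.4 CPM per kilobase for Jund, which many cells express without a stimulus and is the most abundant member here. Dusp1 (11.4 CPM per kilobase), Jun (11.1) and Ier2 (9.44) came next, followed by Junb (4.22), Gadd45b (3.04), Fos (1.83), Egr1 (1.22), Atf3 (0.803) and Fosb (0.177). No member was at 0 in any library. Dusp1 and Jun, neighbours in this order, were closer than their spread, since Dusp1 ran from 10.5 to 1360.1 CPM and Jun from 8.78 to 660.4 CPM over the libraries. On this scale Jund stood apart from Dusp1, and Atf3 from Fosb, by more than the SDs within groups given below. The order depended on the length used. In plain CPM the medians were 5.46 for Egr1, 4.83 for Gadd45b and 4.30 for Fos. Atf3 (1.73) and Fosb (1.10) were then closer than their SDs.

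The spread between libraries of 1 group was large for most of the set. It was measured as the SD of log2 CPM within groups, pooled over the 16 groups with 48 degrees of freedom. Jund had the widest spread, 1.54, against a median of 0.49 among the 500 genes of most similar level, and lay at percentile 100 of those. Fos had an SD of 1.24 (percentile 98.6), Dusp1 1.18 (99.4), Egr1 1.17 (98.4) and Jun 1.03 (98.4). Ier2 at 0.87 (93.6) and Junb at 0.93 (93.2) were lower. Atf3 at 1.07 (79) and Fosb at 1.15 (73.4) are scarce transcripts, and genes at those levels had median SDs of 0.93 and 1.05. Gadd45b had the smallest spread of the set, 0.74 (60.8), close to the 0.69 that was typical of its level. These percentiles describe where each gene lay and carry no test. The SD without the 3 libraries that stood apart was 1.27 for Jund, 0.86 for Dusp1, 0.68 for Jun, 0.52 for Ier2 and 0.56 for Gadd45b, and Ier2 then lay at percentile 81.4. The percentile also depended on the scaling, most for 3 members. With total counts in place of TMM, Gadd45b lay at 24.2 (SD 0.61), Ier2 at 72.6 and Junb at 76.2. Atf3 then lay at 71.2, Jun at 92.8 and Egr1 at 95.6. With TMM and a prior count of 0.5 in place of 2 in log2 CPM, Fosb lay at 54.4 and Egr1 at 96.

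**Figure D2:**
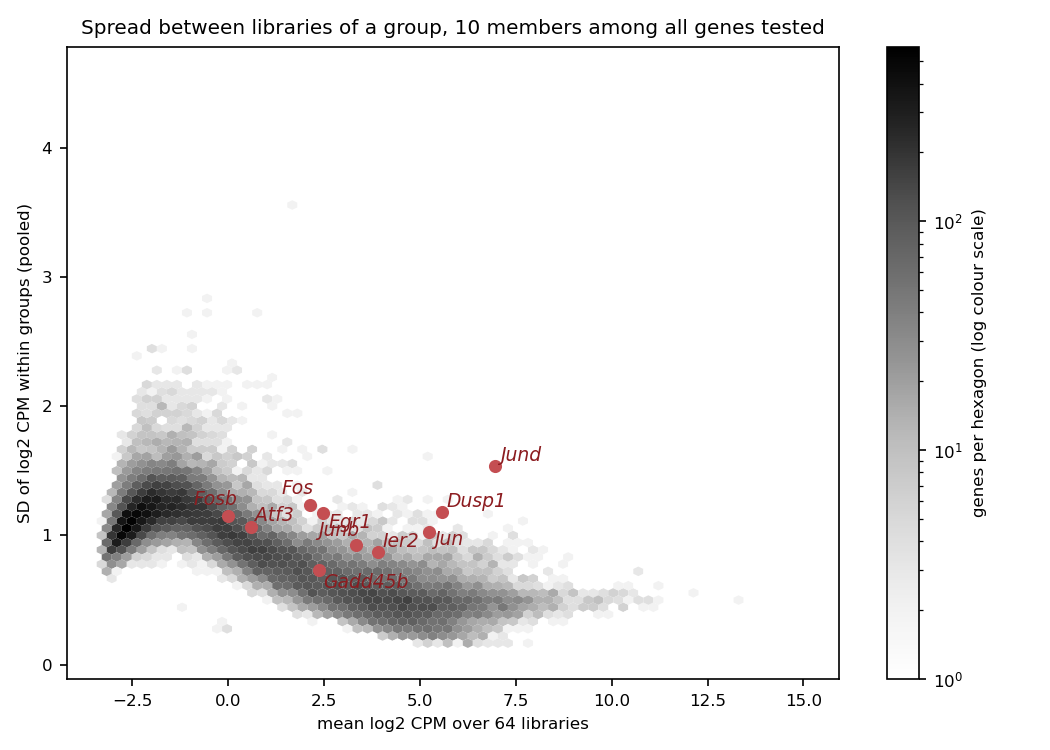
The horizontal axis is the mean log2 CPM over 64 libraries and the vertical axis the pooled SD of log2 CPM within groups, with grey hexagons counting all genes tested and red points the 10 members. With TMM scaling and a prior count of 2, Jund, Dusp1, Jun, Fos and Egr1 lay above percentile 98 of genes of like level, and Gadd45b at 60.8. With total counts Jun lay at 92.8 and Egr1 at 95.6.

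Within single groups the highest library exceeded the lowest by large factors. Jund differed 62.7-fold among the 4 male furosemide libraries at 12 h, Atf3 60.1-fold among male furosemide libraries at 48 h, Dusp1 44.4-fold in the 12 h group, Jun 41.9-fold among female controls at 48 h and Fos 40.5-fold among female furosemide libraries at 12 h. Of these, the Jund, Dusp1 and Jun ratios each rested on 1 of the libraries that stood apart, and without it they were 1.38, 2.56 and 2.34. The largest ratios in any group were then 38.3 for Jund (female furosemide at 96 h), 22.7 for Dusp1 (male control at 12 h) and 6.31 for Jun (male control at 12 h). The median ratio of highest to lowest over the 16 groups was 7.46 for Fosb, 7.12 for Jund, 7.10 for Egr1, 6.15 for Fos, 4.08 for Atf3, 3.15 for Junb, 3.13 for Dusp1, 2.69 for Jun, 2.47 for Gadd45b and 2.44 for Ier2. Set against the pooled SD, the average diet difference was 1.38 SD lower for Gadd45b, with a ratio of -1.38. For Fos the ratio was 0.65, for Jun 0.53, for Junb 0.50, for Egr1 0.41 and for Atf3 0.28. For Dusp1 it was -0.28, for Jund and Ier2 0.18 each, and for Fosb -0.06. Averaged over the times, the diet difference was thus larger than 1 SD between libraries for Gadd45b only. Without the 3 libraries that stood apart the ratio was -1.35 for Gadd45b and 1.01 for Jun.

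**Figure D3:**
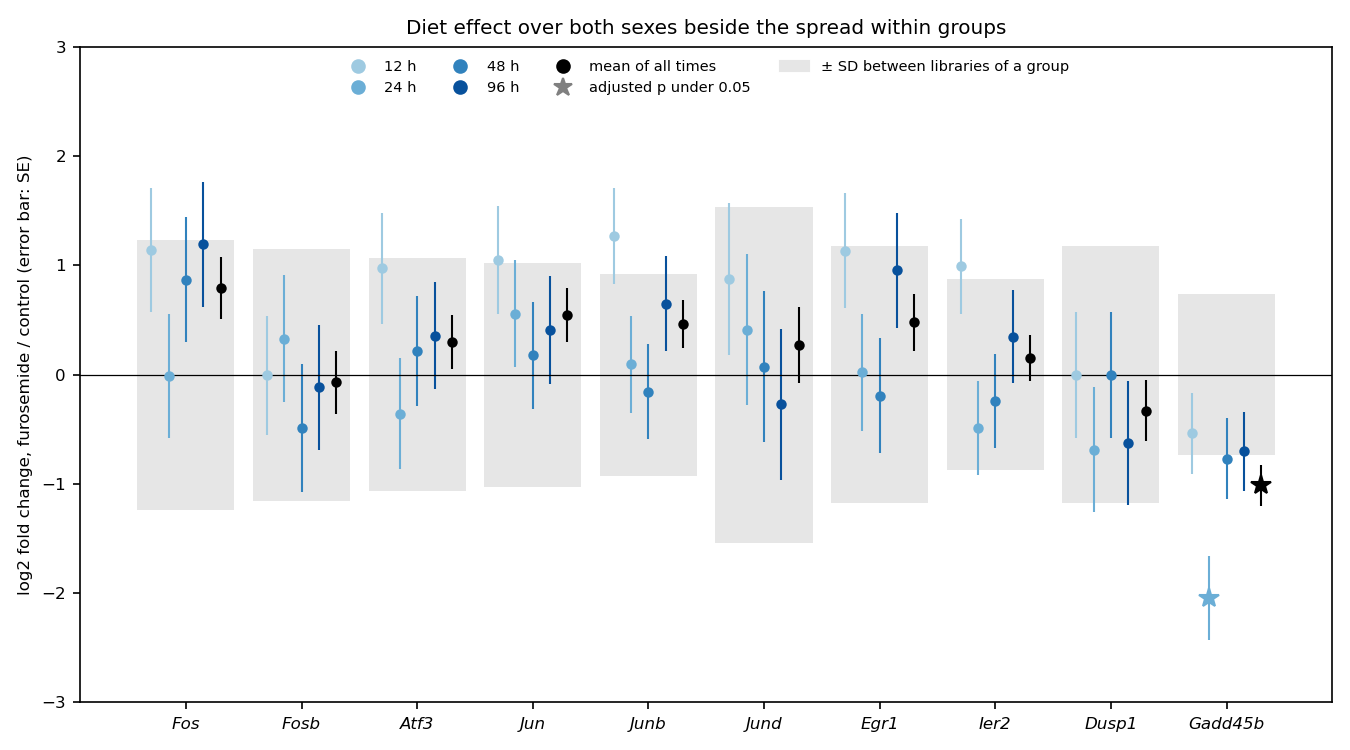
Points are log2 fold changes of furosemide over control in both sexes at 12, 24, 48 and 96 h and, in black, their mean, with SE as error bars, stars for an adjusted p under 0.05 and a grey band of ± 1 pooled SD between libraries of a group. Stars appear only for Gadd45b, at 24 h (-2.04) and for the mean of all times (-1.01).

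At 12 h, 7 of 10 members had a positive difference and the median over the members was 0.98, against 0.00 over all genes tested. None of the 10 was called by edgeR's test, which called 0% of all genes in this comparison. At an unadjusted p under 0.05 there were 5 of 10 members and 3663 of 41507 genes, and limma voom and DESeq2 also called 0 members. The median rested on few libraries: without the 3 that stood apart it was 0.04, still with 7 positive members. Under each of the other scalings of the libraries that were tried, 7 members were positive as well. The median was then 0.72 with total counts and 0.89 with DESeq2's size factors. It was 0.425 by limma voom, with 8 positive, and 0.36 with a block for same-numbered libraries, with 7 positive. At 24 h the members' median was 0.00 against -0.04 for all genes, and 1 of 10 was called against 0.00964% of genes. At 48 h it was -0.08 against -0.10, with 0 of 10 called by edgeR and 1 at an unadjusted p under 0.05, against 0.00241% of genes called, and at 96 h it was 0.35 against 0.01, again with 0 called and 1 at an unadjusted p under 0.05, against 0.0819% of genes (0.0699% of genes were called higher). The 48 h median turned its sign without the 3 libraries that stood apart: it was then 0.64, against -0.06 for all genes, with 8 members positive in place of 4 and 1, Jun, called where 2.15% of all genes were. Junb, Egr1, Ier2 and Dusp1 went from negative to positive at 48 h in that fit, to 0.58, 0.56, 0.70 and 1.23. At 24 h the median was then 0.14 with 7 positive and 0 called (0.00692% of genes), and at 96 h 0.34 with 6 positive. Limma voom and DESeq2 called 0 members at 48 and 96 h.

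Within 1 sex the members called numbered 0 in males at 12 h (0.00241% of genes called), 24 h (0%), 48 h (0%) and 96 h (0.012%). In females they numbered 0 at 12 h (0%), 1 at 24 h (0.272%), 0 at 48 h (0%) and 0 at 96 h (0.00723%). At an unadjusted p under 0.05 edgeR had 2, 1, 0 and 1 members in males and 2, 2, 0 and 0 in females, in order of time. Of all 41507 genes, 3320, 2762, 2601 and 1065 had such a p in males and 2771, 4398, 3042 and 673 in females. DESeq2 called no member at the times where edgeR called none. Once the 3 libraries that stood apart were left out, 1 member, Dusp1, fell in males at 12 h, with the control library at 1360.1 CPM still among them (0.0646% of genes fell), 1, Jun, rose in females at 48 h (0.291% rose), and 0 were called in females at 24 h (0%). Whether the diet difference varied with time or with sex was tested directly. For time, 0 of 10 members passed against 0.012% of genes, with edgeR adjusted p-values of 0.618 for Gadd45b, 0.737 for Ier2 and 0.774 for Junb as the lowest. In that test 1 of 10 members and 3033 of 41507 genes had an unadjusted p under 0.05. For sex, 0 of 10 passed (0 at an unadjusted p under 0.05) against 0% of genes, although 2793 genes had an unadjusted p under 0.05, and the lowest edgeR adjusted p was 0.878, for Dusp1. Limma voom called 0 members in both tests.

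The Fos-type and ATF-type partners of AP-1 showed no called diet difference. Fos, the founding member of the family and a marker of recent stimulation, had 2.31, 4.39, 6.38 and 8.05 CPM in female controls at 12 h and 9.93, 1.36, 55.2 and 4.42 CPM in the female furosemide group. In males at 12 h it had 16.6, 6.30, 6.75 and 2.51 CPM on the control diet and 2.30, 7.22, 27.1 and 10.1 CPM on furosemide. The groups overlapped, and in each sex the highest of the 8 libraries was on furosemide. The difference over both sexes was 1.14 (SE 0.568, edgeR adjusted p = 0.566), and it was 0.26 without replicate 3 of the female furosemide group and 0.72 without replicate 3 of the male furosemide group.

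At 96 h Fos ran from 1.08 to 10.8 CPM with a median of 2.36 in the 8 control libraries and from 2.26 to 17.0 CPM with a median of 5.71 in the 8 furosemide libraries. The groups overlapped, with 7 of 8 furosemide libraries above the control median. This gave a log2 fold change of 1.19 (SE 0.57, edgeR adjusted p = 1), and in males alone 2.17 (SE 0.83, edgeR adjusted p = 1). At 24 h it was -0.01, and at 48 h 0.87 (SE 0.571, edgeR adjusted p = 0.65). Leaving out replicate 1 of the female furosemide group gave 0.14 at 48 h, and leaving out replicate 4 of the male furosemide group gave 0.25. The mean of all times was 0.80 (SE 0.284, edgeR adjusted p = 0.229). Within groups Fos varied with an SD of 1.43 on furosemide and 1.00 on the control diet, a difference that was not tested.

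Fosb, a close relative of Fos, stayed near 1 CPM throughout, from 0.0598 to 3.58 CPM with a median of 1.10. Its differences ran from -0.49 at 48 h to 0.33 at 24 h. Atf3, a stress-induced factor that pairs with Jun proteins and often represses, was also scarce, from 0.0484 to 5.77 CPM. At 12 h it had 1.23 ± 0.790 CPM (SD, n = 8) in controls and 2.25 ± 1.81 CPM (SD, n = 8) on furosemide, overlapping groups with a log2 fold change of 0.98 (SE 0.508, edgeR adjusted p = 0.588), or 0.49 without replicate 4 of the male furosemide group. At the later times its differences were -0.36, 0.22 and 0.36.

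Among the Jun-type partners, none passed the test for the diet. Jun pairs with Fos proteins and is switched on through the kinase JNK. Over all times Jun was above the control median of 25.8 CPM in 26 of 32 furosemide libraries, whose median was 42.2 CPM, and its mean difference was 0.55 (SE 0.246, edgeR adjusted p = 0.416). At 24 h it had 21.2, 21.5, 20.01 and 23.2 CPM in male controls and 45.5, 38.8, 36.7 and 41.3 CPM on furosemide, so that the male groups did not overlap. In females at 24 h the values were 16.1, 27.4, 25.9 and 13.01 CPM against 27.1, 22.7, 29.2 and 15.7 CPM, which overlapped. Jun was the only member whose male groups did not overlap at 24 h with furosemide higher, which was the case for 1.91% of all genes, and the difference over both sexes at 24 h was 0.56 (SE 0.494, edgeR adjusted p = 0.953).

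At 48 h Jun turned on 1 library. Female controls had 10.5, 11.3, 24.6 and 440.4 CPM, and female furosemide libraries 51.1, 211, 43.1 and 51.2 CPM. In males the values were 8.78, 21.5, 10.9 and 32.3 CPM on the control diet and 34.0, 24.0, 24.7 and 45.1 CPM on furosemide. All 8 furosemide libraries were above the control median of 16.4 CPM, yet replicate 4 of the female controls was the highest of the 16. The log2 fold change was 0.18 with this library (SE 0.491, edgeR adjusted p = 0.956) and 1.67 without it (edgeR adjusted p = 0.159). The fit without it kept the dispersion trend, the variance expected at a gene's level, of all 64 libraries. When all 3 libraries that stood apart were left out and that trend was estimated anew, the log2 fold change was 1.68 (SE 0.349, edgeR adjusted p = 0.0109). The mean over all times was then 0.69 (SE 0.166, edgeR adjusted p = 0.00577). In that fit 2.15% of all genes were called at 48 h and 5.81% in the mean of all times. Without the 1 female control library alone the mean of all times was 0.92 (edgeR adjusted p = 0.00973). At 12 h the log2 fold change was 1.05 (SE 0.496, edgeR adjusted p = 0.528) with the male furosemide library at 660.4 CPM and 0.02 without it. At 96 h it was 0.41. The transcript of Junos, which overlaps Jun on the other strand, had a median of 1.18 CPM. Reads without strand could not tell it apart from Jun where exons of both overlap, which was not examined.

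Junb, which pairs with Fos proteins and often restrains Jun, had its largest difference at 12 h. It ran from 6.01 to 25.6 CPM with a median of 9.87 in controls and from 6.62 to 141.7 CPM with a median of 14.9 on furosemide, and the groups overlapped. Its log2 fold change was 1.27 (SE 0.44, edgeR adjusted p = 0.389), or 0.65 without replicate 4 of the male furosemide group. At 96 h it was 0.65, with 11.3 ± 3.63 CPM (SD, n = 8) in controls and 17.8 ± 5.78 CPM (SD, n = 8) on furosemide and 7 of 8 furosemide libraries above the control median. The differences at 24 and 48 h were 0.09 and -0.16, the second of which was 0.57 without replicate 4 of the female controls. The gene Prdx2, which overlaps Junb on the other strand, was more abundant, with a median of 260.1 CPM. The overlap is of whole gene spans, and whether exons of the 2 genes overlap, so that reads could be shared, was not examined. The part of Prdx2 reads in the Junb values was not tested. Over the 64 libraries the deviations of Prdx2 and Junb had a correlation of 0.26.

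Jund, the Jun protein least tied to stimulation, differed between libraries more than between diets. At 48 h it ran from 24.4 to 3163 CPM with a median of 129 in controls and from 15.96 to 2600.0 CPM with a median of 181 on furosemide, and the means were 484 and 485 CPM. This is a log2 fold change of 0.07, or 1.36 without replicate 4 of the female controls. At 12 h it was 0.88 (SE 0.698, edgeR adjusted p = 0.769), and -1.05 without replicate 4 of the male furosemide group. At 24 and 96 h it was 0.41 and -0.27. Under the fit with Lars2 as a covariate its values at 24 h and 96 h were -0.23 and -1.28, so the sign at 24 h depended on that choice.

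Egr1, a zinc finger factor induced by the ERK cascade, had its clearest separation at 96 h. Male controls had 7.33, 4.68, 4.73 and 6.66 CPM and male furosemide libraries 9.92, 19.0, 12.2 and 9.88 CPM, without overlap. Female controls had 4.25, 4.15, 7.13 and 4.10 CPM and female furosemide libraries 5.56, 10.2, 10.7 and 7.45 CPM, with overlap through replicate 3 of the controls and replicate 1 on furosemide. All 8 furosemide libraries were above the control median of 4.71 CPM. Egr1 was the only member without overlap among males at 96 h, where 2.68% of all genes were higher on furosemide without overlap. The log2 fold change was 0.95 (SE 0.524, edgeR adjusted p = 1) in the fit of all 64 libraries. In a fit of the 96 h libraries alone it was 0.93 (SE 0.202, edgeR adjusted p = 0.0461), which passed. That fit also called more genes than the 34 called at 96 h in the fit of all 64 libraries, as counted in the last section. At 12 h the log2 fold change was 1.14 (SE 0.526, edgeR adjusted p = 0.517), or 0.44 without replicate 3 of the female furosemide group, and at 24 and 48 h it was 0.02 and -0.19. Without replicate 3 of the female controls the 24 h value was 0.52, and without replicate 4 of the female controls the 48 h value was 0.54.

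Ier2 encodes a small nuclear protein that many stimuli induce. Its highest value, 209 CPM, was in replicate 4 of the male furosemide group at 12 h, where the other 3 libraries had 15.3, 11.4 and 24.3 CPM and the male controls 24.4, 17.2, 23.0 and 14.8 CPM. The groups overlapped, and 5 of the 8 furosemide libraries of both sexes were below the control median of 15.996 CPM. The log2 fold change at 12 h was 0.99 (SE 0.432, edgeR adjusted p = 0.485) and 0.02 without that library. At 24 h it was -0.49, and 0.16 without replicate 3 of the female controls. At 48 h it was -0.24, and 0.68 without replicate 4 of the female controls, and 7 of 8 furosemide libraries were above the control median of 10.2 CPM. At 96 h it was 0.35.

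Dusp1, a phosphatase that switches off the p38, JNK and ERK kinases, differed widely between libraries of 1 group. Female controls at 12 h had 36.3, 31.8, 20.8 and 22.5 CPM and female furosemide libraries 53.5, 43.3, 44.6 and 38.3 CPM, which did not overlap. Among females at 12 h, 1.37% of all genes were higher on furosemide without overlap, and Dusp1 was the only such member. Males at 12 h had 59.8, 107, 1360.1 and 71.8 CPM on the control diet and 51.1, 20.001, 30.4 and 888 CPM on furosemide, so 1 library in each group was more than 10-fold above the rest. The log2 fold change over both sexes was 0.00 (SE 0.579, edgeR adjusted p = 1), 1.16 without replicate 3 of the male controls and -1.44 without replicate 4 of the male furosemide group.

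At 24 and 96 h, 7 of 8 furosemide libraries had Dusp1 under the median of the controls. At 24 h it had 33.5 ± 23.0 CPM (SD, n = 8) in controls and 19.6 ± 4.63 CPM (SD, n = 8) on furosemide, a difference of -0.69 (SE 0.569, edgeR adjusted p = 0.927). At 96 h it had 137 ± 37.6 CPM (SD, n = 8) in controls and 88.9 ± 64.7 CPM (SD, n = 8) on furosemide, a difference of -0.63 (SE 0.564, edgeR adjusted p = 1). The groups overlapped at both times. At 48 h the libraries lay the other way, with 6 of 8 on furosemide above the control median of 26.3 CPM. The difference at 48 h was 0.00 (SE 0.574, edgeR adjusted p = 1), and 1.22 without replicate 4 of the female controls, at 469 CPM. Ergic1, with a median of 42.01 CPM, overlaps the annotated span of Dusp1 on the other strand. Whether exons of these genes overlap, so that reads could be shared, was not examined.

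Gadd45b was lower on furosemide in most libraries at each time. At 24 h female controls had 3.55, 7.86, 58.1 and 3.04 CPM and female furosemide libraries 1.82, 3.03, 3.78 and 1.46 CPM. Male controls at 24 h had 8.01, 8.01, 7.45 and 4.33 CPM and male furosemide libraries 1.75, 4.46, 3.59 and 1.93 CPM. All 8 furosemide libraries were below the control median of 7.65 CPM, and the ranges overlapped between 3.04 and 4.46 CPM. The log2 fold change was -2.04 (95% interval -2.81 to -1.27, edgeR adjusted p = 0.0244), with -2.84 in females (SE 0.557, edgeR adjusted p = 0.0291) and -1.25 in males (SE 0.529, edgeR adjusted p = 0.659).

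The size at 24 h depended on replicate 3 of the female controls, at 58.1 CPM. Of the 64 libraries this was the least similar to the others of its own group. It had 33.56 M counts, a mitochondrial share of 2.4% and a TMM factor of 0.48. Without it the log2 fold change was -1.04 over both sexes (edgeR adjusted p = 0.252) and -0.90 in females (edgeR adjusted p = 0.891), and the call was lost. The call over both sexes was also lost when any 1 of 9 other libraries of that time was left out, namely each of the 4 female furosemide libraries, replicates 2 and 3 of the male controls and replicates 1, 3 and 4 of the male furosemide group.

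At the other times Gadd45b was lower by amounts that did not pass. At 12 h it had 6.57 ± 3.67 CPM (SD, n = 8) in controls and 4.44 ± 1.45 CPM (SD, n = 8) on furosemide, a log2 fold change of -0.54 (SE 0.369, edgeR adjusted p = 0.71), with 5 of 8 furosemide libraries below the control median. At 48 h it had 6.38 ± 3.46 against 3.87 ± 2.13 CPM (SD, n = 8 each), a log2 fold change of -0.77 (SE 0.371, edgeR adjusted p = 0.507), with 7 of 8 below. Male furosemide libraries at 48 h had 2.22, 1.85, 1.81 and 4.85 CPM and male controls 8.09, 6.96, 3.03 and 3.15 CPM, which overlapped. At 96 h it had 9.25 ± 2.35 against 5.69 ± 1.77 CPM (SD, n = 8 each), a log2 fold change of -0.70 (SE 0.365, edgeR adjusted p = 1), with 7 of 8 below. Female libraries at 96 h had 9.34, 7.92, 8.95 and 4.76 CPM on the control diet and 5.66, 4.41, 4.997 and 3.82 CPM on furosemide, and male libraries had 8.98, 9.88, 11.8 and 12.3 against 4.44, 6.95, 9.31 and 5.96 CPM, with overlap in both sexes.

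The mean over all times kept its call when any single library was left out, with log2 fold changes from -1.07 to -0.75 and adjusted p-values from 0.000409 to 0.00337. Without the 3 libraries that stood apart it was -0.75 (SE 0.145, edgeR adjusted p = 0.00039). It did rest on pooling: over males alone it was -0.81 (SE 0.262, edgeR adjusted p = 0.25), over females alone -1.22 (SE 0.263, edgeR adjusted p = 0.0353), and over 12, 48 and 96 h alone -0.67 (SE 0.213, edgeR adjusted p = 0.152). Gadd45b deviated from its group mean together with total counts (r = 0.65) and opposite to the TMM factor (r = -0.61) over the 64 libraries. The medians of total counts were 19.9 M in controls and 21.3 M on furosemide, and the part of depth in the diet difference was not tested.

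In no comparison over both sexes did a member's control and furosemide libraries separate without overlap. Over all genes the share that did was 0.00723% lower and 0.00964% higher at 12 h, 0.00241% and 0.00482% at 24 h, 0.00964% and 0.0193% at 48 h, and 0.041% and 0.161% at 96 h.

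The high values of different members sat in the same few libraries. As an index, each member's deviations of log2 CPM from the group mean were divided by their SD over the 64 libraries. The result was averaged over the 10 members, so the index is in SD units and not on the log2 scale. Replicate 4 of female control at 48 h had the highest index, 2.13, with 9 of 10 members above their group mean and 8 at the highest value of the group. Replicate 4 of male furosemide at 12 h had 2.09, also with 9 above and 8 highest, and replicate 3 of female furosemide at 12 h had 1.19, again with 9 and 8. Replicate 2 of female furosemide at 48 h had 1.03, with 9 above and 6 highest. The library with the highest Gadd45b, replicate 3 of female control at 24 h, was also the highest of its group for Ier2 (54.0 CPM), Dusp1 (83.5), Junb (10.3) and Egr1 (9.18). It lay within the range of the other female controls of that time for Fos (5.77 CPM) and Jun (25.9) and below them for Jund (66.3), Fosb (0.186) and Atf3 (0.0620).

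**Figure D4:**
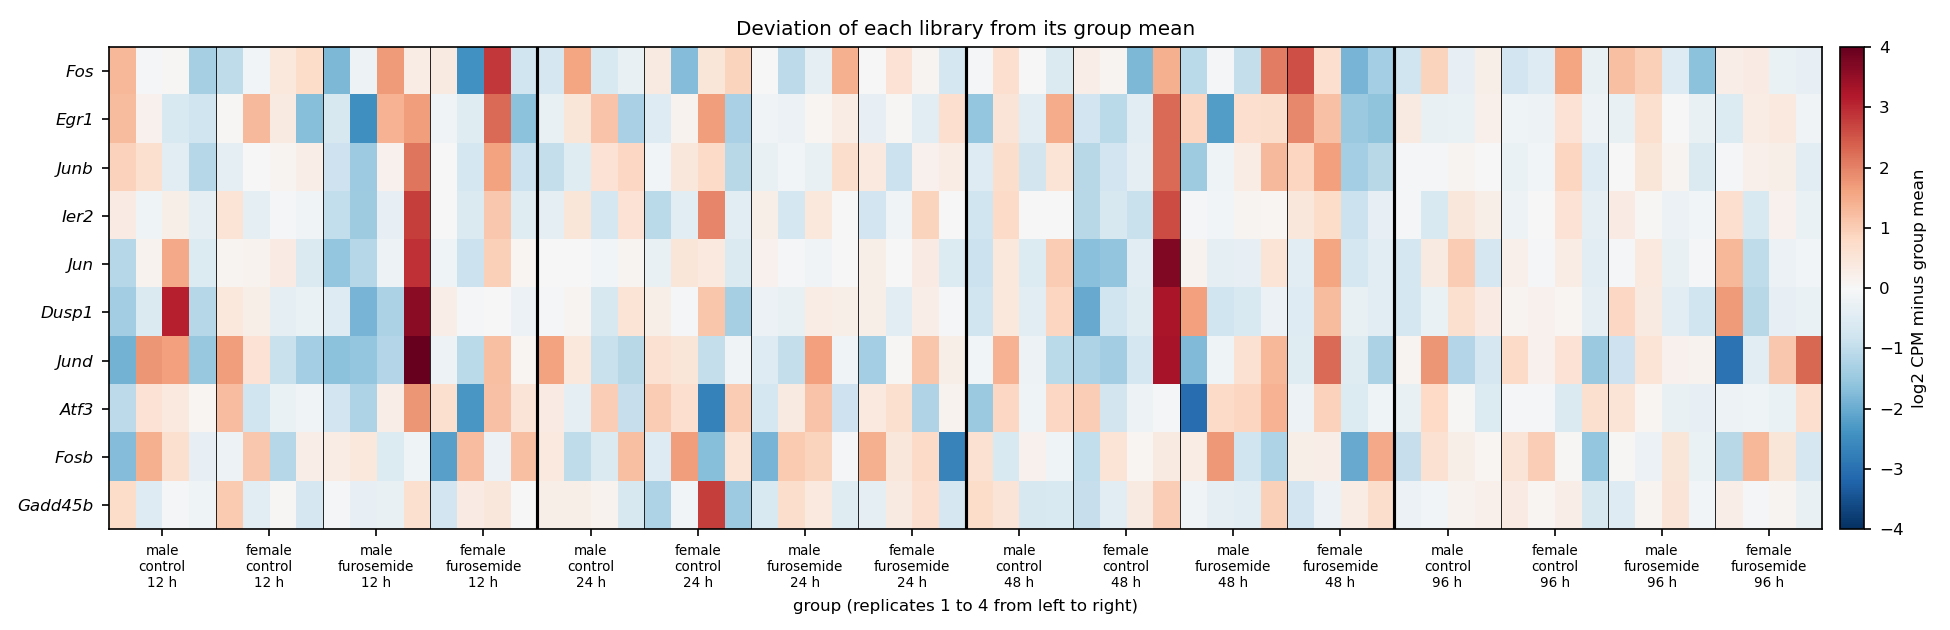
Rows are the members, columns the 64 libraries in groups of 4 (replicates 1 to 4 from left to right), and colour the log2 CPM minus the group mean, red above and blue below. Red columns that run over most members mark replicate 4 of female control at 48 h and replicate 4 of male furosemide at 12 h. Their indices, in SD units, were 2.13 and 2.09.

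Over the 64 libraries, deviations of Jun and Dusp1 went together most closely (r = 0.84), followed by Jun and Ier2 (0.75), Ier2 and Dusp1 (0.71), Junb and Ier2 (0.69) and Junb and Egr1 (0.69). Fos went with Junb (0.54) and Egr1 (0.43) and little with Dusp1 (0.10). Of the 45 pairs, 37 were positive with a median of 0.27. Without the 3 libraries that stood apart the median was 0.15, and 3 pairs were above 0.5 in place of 9. These correlations describe libraries that also share depth and composition. The index itself went with the log2 total count (r = 0.58, or 0.45 without the 3 libraries), against the mitochondrial share (-0.46, or -0.18), and with the summed endothelial (0.54, or 0.31) and podocyte (0.50, or 0.36) markers. The genes outside the set whose deviations were most like the index were Rai1 (r = 0.87), Cpox (0.86) and Habp4, Bag1 and Tnfaip2 (0.85 each), over 64 libraries and 9589 genes. These values were 0.70, 0.69, 0.66, 0.74 and 0.68 without the 3 libraries.

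Markers of other cells were raised in some of the same libraries. The 7 endothelial markers summed to 1064 CPM of all counts in replicate 4 of female control at 48 h and to 2222 in replicate 4 of male furosemide at 12 h. The range was 299 to 2864 in controls (median 572) and 322 to 2222 on furosemide (median 564). The highest sum, 2864, was in replicate 3 of male control at 12 h, which also held the highest podocyte sum, 3581 (6 markers, control median 64.7, furosemide range 34.6 to 262), and the highest Dusp1, 1360.1 CPM. Replicate 3 of female furosemide at 12 h, which held the highest Fos, had an endothelial sum of 418 and a podocyte sum of 48.1, both below the control medians. The part of other cells in the members' levels was not tested.

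Time within the controls was compared because each time had its own control libraries. Jund (edgeR adjusted p = 0.0253) and Dusp1 (edgeR adjusted p = 0.0319) differed among the times, so that 2 of 10 members were called against 8.41% of all genes. The control mean of Dusp1 was highest at 12 h, 214 ± 464 CPM (SD, n = 8), through 1 library at 1360.1 CPM, and was 33.5 ± 23.0 at 24 h, 78.1 ± 158 at 48 h and 137 ± 37.6 CPM at 96 h (SD, n = 8 each). Its median was highest at 96 h, with 48.1, 26.3, 26.3 and 152 CPM in order of time. The 24 h controls reached 83.5 CPM at most and the 96 h controls 74.8 CPM at least, so the times overlapped. Jund had control means of 117 ± 113, 88.8 ± 69.7, 484 ± 1084 and 475 ± 387 CPM (SD, n = 8 each) and medians of 59.7, 77.4, 129 and 408 CPM in the same order, and its 48 h mean held 1 library at 3163 CPM. The other 8 did not pass, with edgeR adjusted p-values from 0.151 for Junb to 1 for Fosb. The 96 h controls were also sequenced more deeply (median 33.7 M counts against 18.9 M at 24 h), had a lower mitochondrial share (9.42% against 16.02%) and held less Lars2 (medians of 10035 and 29129.5 CPM of all counts). These cannot be told apart from time. Both calls were lost in edgeR's robust fit (adjusted p = 0.0633 for Jund and 0.0722 for Dusp1). Dusp1 also lost its call when any 1 of 6 control libraries of 24 or 96 h was left out, and Jund when 1 of 32 was. With Lars2 as a covariate Dusp1 lost its call (edgeR adjusted p = 0.278) and Jund kept it (edgeR adjusted p = 0.0437). Without the 3 libraries that stood apart 5 members were called, Jun, Junb, Jund, Ier2 and Dusp1, but so were 20.5% of all genes. The 96 h libraries of the diets differed in the same measures. Medians in controls and on furosemide were 33.7 and 29.9 M counts, 9.42% and 11.4% mitochondrial share, and 10035 and 19489 CPM of Lars2. The part of depth and mitochondrial share in the diet differences at 96 h was not tested.

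Between the sexes within controls, 0 of 10 members were called by edgeR, against 1.24% of all genes (0.684% lower in females). At an unadjusted p under 0.05 there were 1 of 10 members, Jund, and 4880 of 41507 genes. Jund was higher in female controls by 1.09 (SE 0.495, edgeR adjusted p = 0.369) and Gadd45b by 0.50 (SE 0.259, edgeR adjusted p = 0.445), neither of which passed. Both rested on single libraries, since Jund was 0.44 without replicate 4 of the 48 h female controls and Gadd45b 0.03 without replicate 3 of the 24 h female controls. Most signs turned without the 3 libraries that stood apart: 9 of 10 members were then lower in females (median -0.31), against 2 of 10 (median 0.12) with all libraries, and 0 of 10 were called, against 1.22% of all genes.

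Genes around the members were read from lists. Of 40 other immediate early genes, all tested, 29 had positive differences at 12 h, 20 at 24 h, 24 at 48 h and 17 at 96 h. The medians were 0.32, 0.02, 0.22 and -0.12, and none was called at a single time over both sexes. With the 3 libraries left out 21 were positive at 12 h, 26 at 24 h, 30 at 48 h and 17 at 96 h, with medians of 0.05, 0.16, 0.52 and -0.13. In males at 12 h the count went from 27 positive to 9 (median -0.24). Averaged over all times 22 of 40 were positive, and 2 rose, where 0.441% of all genes rose: Sik1, a kinase induced by cAMP (0.57, SE 0.145, edgeR adjusted p = 0.0435), and Gadd45a, a paralog of Gadd45b (0.65, SE 0.166, edgeR adjusted p = 0.0462). The sign for Gadd45a was the opposite of that for Gadd45b. Leaving out the 3 libraries that stood apart, 9 of the 40 rose and 1 fell in the mean of all times, where 4.75% of all genes rose and 1.06% fell. In that fit 6 rose at 48 h, against 1.85% of all genes, and 1 at 96 h, against 0.245%. None of 24 upstream kinases and transcription factors was called at any time or over all times, with 17 of 24 positive in the mean and a median of 0.09. In the fit of 61 libraries 3 of 24 rose at 48 h, and 3 rose and 1 fell in the mean of all times, against the same shares of all genes.

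All 12 heat shock genes, chaperones that bind unfolded proteins, had positive differences at 12 h, 11 at 24 h, 11 at 48 h and 3 at 96 h, with medians of 0.41, 0.27, 0.65 and -0.16 and no call at a single time. In the mean of all times 11 of 12 were positive and 2 rose, against 0.441% of all genes, the mitochondrial chaperonin pair Hspd1 (0.55, SE 0.101, edgeR adjusted p = 0.00128) and Hspe1 (0.63, SE 0.123, edgeR adjusted p = 0.0032). When the 3 libraries were left out, 6 of 12 rose in the mean of all times, against 4.75% of all genes, and 8 of 12 at 48 h, against 1.85%, and 9 of 12 were positive at 12 h. The correlation of their deviations with those of Jun ran from -0.07 (Hspe1 and Hsp90aa1) to 0.86 (Hspa1a, an inducible chaperone) with a median of 0.36 over the 12 genes, and was 0.19 for Hspd1. Over the other 61 libraries it ran from 0.02 to 0.73 with a median of 0.30.

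Genes induced by glucocorticoids were listed because Dusp1 is a known target of these hormones in many cells. All 10 had negative differences at 24 h (median -0.52) and at 96 h (median -1.07), against 3 negative at 12 h and 4 at 48 h. The 24 h values lay mostly with the females, whose 10 genes had a median of -1.18, against 7 of 10 negative and a median of -0.15 in males. Without the 3 libraries, of which 1 is a female control at 24 h, 7 of 10 were negative at 24 h (median -0.12), 8 at 12 h, 2 at 48 h and 10 at 96 h (median -1.08). In that fit 1 of 10 fell at 24 h (0.00231% of all genes fell), 4 at 96 h (0.0646%) and 4 in the mean of all times (1.06%), and 1 rose at 48 h (1.85% rose). With all 64 libraries 1 of 10 fell at 24 h, against 0.00723% of all genes, Pdk4, a kinase that shuts down pyruvate oxidation, with a log2 fold change of -1.90 (SE 0.376, edgeR adjusted p = 0.0425). At 96 h 3 of 10 fell, against 0.012% of all genes: Pdk4 by 2.16 on the log2 scale (SE 0.378, edgeR adjusted p = 0.00238), Fkbp5, a chaperone partner of the steroid receptors, by 1.80 (SE 0.326, edgeR adjusted p = 0.00327) and Tsc22d3, the glucocorticoid-induced leucine zipper, by 1.64 (SE 0.325, edgeR adjusted p = 0.0104). Markers of other cells had negative differences at 96 h as well, 6 of 6 for intercalated cells (median -1.28), 6 of 7 for connecting tubule and principal cells (-0.60) and 9 of 10 for immune cells (-0.26), with none called, and their part in these values was not tested. In the mean of all times, where 0.147% of all genes fell, Pdk4 (-1.20, SE 0.184, edgeR adjusted p = 0.000121) and Zbtb16 (-0.99, SE 0.174, edgeR adjusted p = 0.000817) fell, with 9 of 10 negative. Over the 64 libraries the correlation of deviations with Gadd45b ran from 0.08 (Zbtb16) to 0.62 (Tsc22d3) over the 10 genes, with a median of 0.45, and without the 3 libraries from -0.02 (Per1) to 0.47 (Pdk4), with a median of 0.26. The 12 heat shock genes had medians of 0.38 and 0.10 with Gadd45b, and Prdx2 had 0.65 and 0.26.

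**Figure D5:**
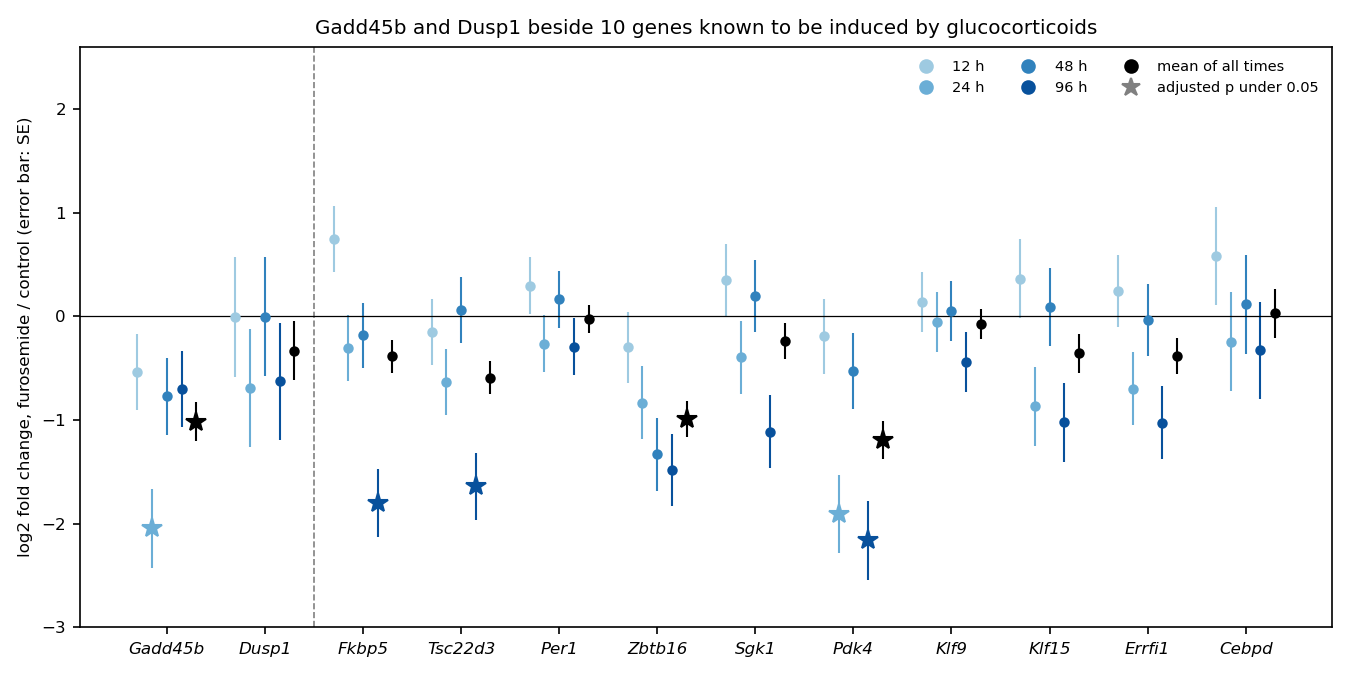
Log2 fold changes of furosemide over control in both sexes at each time and, in black, their mean are plotted with SE as error bars for Gadd45b and Dusp1, left of the dashed line, and for 10 genes known to be induced by glucocorticoids, with stars for an adjusted p under 0.05. All 10 listed genes lay below 0 at 24 and 96 h in this fit of all 64 libraries (7 at 24 h without the 3 that stood apart), Gadd45b lay below 0 at each time, and Dusp1 carried no star.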

How the data were processed

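RNA-seq was made from microdissected early DCT with the SMART-Seq HT and Nextera XT kits, per the labels' protocols, which mark no strand and give no molecular identifiers. Each value in the deposited table is an estimated count for a gene, made by the authors with Salmon 0.14.10 on GRCm38.p6, per the submitters' processing notes. The annotation release was not given in the sources used here. The values were rounded to whole counts, and 0 columns of the table were left unused. Symbols were matched for 54097 of 54331 gene identifiers.

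Libraries were scaled by TMM, and genes were filtered with filterByExpr (minimum count of 10), leaving 41507. All 64 libraries were fitted with 1 mean per group and tested with edgeR 4.0.16 (quasi-likelihood test, R 4.3.3), with Benjamini-Hochberg adjustment over all genes tested within a comparison. Spread and deviations use log2 CPM with a prior count of 2. The scripts were tested on simulated counts, with changes set at 24 h over both sexes. The test called 31 of 100 genes given a log2 change of 1 and 91 of 100 given 2, with 4 false calls. The simulated spread was that expected at a gene's level, and most members varied more. A difference near 1 could thus often go uncalled. Alternatives were limma voom (limma 3.58.1), DESeq2 1.42.0, other scalings and filters, Lars2 as a covariate, a replicate block, fits of 1 time, and each library left out. Fits with 1 library left out kept the genes tested and the dispersion trend of all 64 libraries. The fit without the 3 libraries that stood apart estimated both anew, so its p-values differ from those for this reason too. All members are named, and from each list the genes called and those with the smallest p could be named. The members and lists were chosen with earlier results of these data known. No 2 libraries of a group were alike within counting noise (smallest chi-square per degree of freedom 15.1 over 96 pairs). Total counts of 12.71 to 41.07 M (1e+06 counts) per library gave medians of 24.5 estimated counts for Fosb, 35 for Atf3, 94 for Fos and 2694 for Jund, so counting error weighs most on Fosb and Atf3.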

Additional observations from a re-analysis of the deposited data

Results flagged for a closer look

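In 13 of the 160 groups of 4 libraries (10 members in 16 groups), the highest or lowest library stood apart: its gap to the nearest of the others on the log2 CPM scale, as a share of the group's range, was above Dixon's 95% critical value for 4 samples. Chance alone picks out about 1 in 20 groups by this measure. The library was high in 8 cases and low in 5, and Fosb had none.

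Jund stood out as high in replicate 4 of female control at 48 h (3163 CPM) and in replicate 4 of male furosemide at 12 h (1044 CPM). The first of these libraries was also high for Ier2, at 85.8 CPM. Replicate 2 of female furosemide at 48 h was high for Jun (211 CPM) and for Dusp1 (122 CPM). Fos was high in replicate 2 of male control at 24 h (8.79 CPM), Egr1 in replicate 3 of female control at 96 h (7.13 CPM) and Atf3 in replicate 4 of female furosemide at 96 h (3.53 CPM).

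The low cases were Junb in replicate 2 of female furosemide at 24 h (2.31 CPM), Egr1 in replicate 2 of male furosemide at 48 h (0.739 CPM) and Gadd45b in replicate 4 of male control at 24 h (4.33 CPM). Atf3 was low in replicate 3 of female control at 24 h (0.0620 CPM) and in replicate 1 of male furosemide at 48 h (0.0484 CPM).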

How the results depend on the processing

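Gadd45b stayed called in the mean of all times under the alternatives chosen with the design, from voom (-0.87, adjusted p = 0.0119) to the fit without the 3 libraries that stood apart. Its count of called members, 1, was 2 without those 3 libraries, where Jun was added, and 0 over males only and without the 24 h groups, splits chosen after seeing the data. At 24 h over both sexes the count of 1 became 0 with voom, without the 3 libraries, with the replicate block (Gadd45b -1.55, adjusted p = 0.563) and with the libraries of that time only, and in females it became 0 with these and with total count scaling. The count of 0 became 1 without the 3 libraries at 48 h over both sexes and in females (Jun) and in males at 12 h (Dusp1), and with the 96 h libraries only at 96 h (Egr1). Time within controls gave 2 called members, but 5 without the 3 libraries, 1 with Lars2 as a covariate and 0 with edgeR's robust fit. Leaving out 1 library gave 0 to 1 called members at 24 h over both sexes, 0 to 1 in females at 24 h, 1 to 2 for the mean of all times and 1 to 3 for time within controls. In the last, Dusp1 was lost without female control 24 h replicate 2, 96 h replicate 2, or male control 24 h replicates 1 or 3 or 96 h replicates 3 or 4, Jund was lost without male control 96 h replicate 2, and Jun was gained without female control 48 h replicate 4. No called value changed sign.

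Counts of genes called moved more. At 12 h they were 0 by edgeR, 96 by DESeq2, 2 by voom, 2 by the robust fit and 3 without the 3 libraries. At 24 h they were 4, against 95 by DESeq2, 15 without TMM, 9 with DESeq2's size factors, 8 with the filter of 1 CPM, 2 with the robust fit and 0 with the block or that time only. At 48 h they were 1, against 930 without the 3 libraries, 120 by DESeq2 and 3 by voom. At 96 h they were 34, against 174 by DESeq2, 157 with that time only, 134 without the 3 libraries, 115 by voom, 79 without TMM, 69 with Lars2, 60 with the filter of 1 CPM and 22 with the block. In females at 24 h they were 113, against 1122 by DESeq2, 350 with DESeq2's size factors, 333 with the filter of 1 CPM and 0 by voom, without the 3 libraries or with the block. For the mean of all times they were 244, against 2518 without the 3 libraries, 493 by DESeq2, 414 without TMM, 154 without the 24 h groups, 124 with the block, 111 with Lars2, 28 in females only and 3 in males only. Time within controls gave 3492, 8906 without the 3 libraries and 311 with Lars2. Total count scaling moved the median of all genes by -0.12, -0.11, -0.29 and -0.16 on the log2 scale at 12, 24, 48 and 96 h.

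Same-numbered libraries of the 2 diets were not paired by the data: over 32 pairs the correlation of their deviations ran from -0.74 to 0.58 with a median of -0.11, and 10 were above 0.1. The block therefore tests a shared number only. The cause of these changes was not tested. With 4 libraries a group, 1 library decided several values.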
